A study of Mus musculus with 9 samples.

Results

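The endoplasmic reticulum folding and stress genes are 40 genes whose products move, fold, check or discard the proteins that a secretory cell makes. They were taken by name from a list of chaperones, isomerases, translocon subunits, degradation factors and stress sensors. The rule itself uses no measured value, but the list was chosen with earlier results of these data known. All 40 were found among the 54532 gene identifiers of the count table, and all 40 were among the 15224 genes that passed the filter on low counts. They fall into 10 chaperones and co-chaperones, 4 disulfide isomerases, 12 genes of translocation and signal peptide cleavage, 8 degradation genes, and 6 stress sensors and transcription factors.

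RNA was sequenced from the submandibular gland, a major salivary gland, of wild-type mice (WT) given 10 Gy of radiation. There were 3 groups of 3 libraries, taken 30, 60 and 90 days after irradiation, and every group carried the same genotype and dose. Total RNA came from 4 tissue sections of 50 µm, so each library mixes all the cells of the gland. Non-irradiated glands were not analysed here, so only irradiated glands are compared, and the interval after irradiation cannot be told apart from the age of the animals. The libraries held 16541396 to 26065856 counts, of which 50.9% to 66.3% fell on the 10 top genes, the largest share being in sample 1 at 30 days. The labels do not say whether the 3 samples of a group came from separate animals, so the p-values measure the spread between these samples, which may be technical in part.

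Proteins bound for secretion enter the endoplasmic reticulum through the Sec61 channel as they are made, lose their signal peptide, and fold with the help of chaperones and of isomerases that form disulfide bonds. Proteins that fail to fold are passed back to the cytosol and destroyed. When unfolded proteins accumulate, the sensors IRE1 (gene Ern1), PERK (gene Eif2ak3) and ATF6 start the unfolded protein response, which raises chaperone and degradation genes and can lead to the death of the cell. Acinar cells of salivary glands secrete large amounts of protein and hold a dense reticulum.

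Much of that response acts through a short promoter element, the ERSE, which ATF6 and the IRE1-dependent factor XBP1 use in partnership with the factor NF-Y. RefSeq promoter windows (GRCm38.p6, 250 bases before to 50 bases after the gene's start) were found for 33 of the 40 genes; there was no entry for Atf6, Derl1, Hyou1, Manf, Sec61a1, Spcs3 and Ssr2. The ERSE was searched as CCAAT, any 9 bases, then CCACG, on both strands. Only exact matches were counted, and variants of the element were not searched. An exact match was present in the windows of 8 of the 33 genes, against 39 of all 32851 windows (0.119%). The 9 elements are shown because both genes called between 30 and 90 days hold one. They are written 5′ to 3′ on the element's own strand, with the CCAAT and CCACG blocks in capitals.
Hspa5, chr2:34772025-34772043, plus strand: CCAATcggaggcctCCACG
Hsp90b1, chr10:86705638-86705656, minus strand: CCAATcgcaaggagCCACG
Hsp90b1, chr10:86705533-86705551, plus strand: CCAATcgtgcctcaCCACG
Creld2, chr15:88819520-88819538, minus strand: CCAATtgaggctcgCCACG
Dnajc3, chr14:118937827-118937845, plus strand: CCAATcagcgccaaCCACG
Canx, chr11:50325800-50325818, minus strand: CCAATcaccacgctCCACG
Pdia6, chr12:17266491-17266509, plus strand: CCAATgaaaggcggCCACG
Derl3, chr10:75893242-75893260, minus strand: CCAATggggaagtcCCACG
Syvn1, chr19:6046532-6046550, plus strand: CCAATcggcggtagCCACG

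The elements lay 26 to 212 bases before the start. Hsp90b1 was the one gene with a pair of exact matches, in opposite orientation. The whole window is given for Hspa5, the gene of the main chaperone of the compartment, and for Creld2 and Derl3, which moved in opposite directions. Each is written along the gene's own strand with the element in capitals, so that in Creld2 and Derl3 the element appears as its reverse complement.
Hspa5, chr2:34771840-34772139, plus strand: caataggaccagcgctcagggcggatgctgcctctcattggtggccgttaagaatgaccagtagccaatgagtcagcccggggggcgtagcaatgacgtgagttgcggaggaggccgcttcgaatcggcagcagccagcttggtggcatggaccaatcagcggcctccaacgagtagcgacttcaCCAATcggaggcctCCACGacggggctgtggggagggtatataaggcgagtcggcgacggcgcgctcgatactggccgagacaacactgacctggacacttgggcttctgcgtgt
Creld2, chr15:88819396-88819695, plus strand: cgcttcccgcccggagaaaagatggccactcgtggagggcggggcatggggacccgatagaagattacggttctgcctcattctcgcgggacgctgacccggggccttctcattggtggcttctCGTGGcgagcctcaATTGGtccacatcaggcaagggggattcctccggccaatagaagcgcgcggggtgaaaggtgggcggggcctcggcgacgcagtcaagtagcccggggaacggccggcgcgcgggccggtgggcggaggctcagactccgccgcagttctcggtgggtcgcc
Derl3, chr10:75893148-75893447, plus strand: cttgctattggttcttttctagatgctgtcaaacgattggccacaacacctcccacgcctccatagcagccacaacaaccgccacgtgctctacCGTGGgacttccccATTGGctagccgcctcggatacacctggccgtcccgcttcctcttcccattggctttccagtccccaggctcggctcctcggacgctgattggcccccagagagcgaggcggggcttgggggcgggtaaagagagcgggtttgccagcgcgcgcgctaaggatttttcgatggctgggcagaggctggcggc

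Expression is given as CPM, a gene's counts set against its library's total and then scaled by TMM (trimmed mean of M-values). Fold changes are log2 values, given ± their standard error. The test was edgeR's quasi-likelihood test on all 9 libraries, and p-values were adjusted by Benjamini-Hochberg over all 15224 genes with a threshold of 0.05. By this test 2 of the 40 genes differed between 30 and 90 days, Creld2 higher and Derl3 lower, where 3.57% of all genes tested passed. None of the 40 passed between 30 and 60 days, where 1.56% of all genes did, or between 60 and 90 days, where 0.256% did. At an unadjusted p under 0.05 the counts were 8, 5 and 13 of 40 (20%, 12.5% and 32.5%) for 60 against 30, 90 against 60 and 90 against 30 days. Of all genes 12.4%, 10.8% and 16.8% did so, which puts the count from 60 to 90 days close to the background. In the test of any difference among the 3 time points, which 3.29% of all genes passed, Creld2 and Atf6 passed. A p-value over the threshold does not show that a gene stayed the same.

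Levels between genes were compared per kilobase of exon, as the mean of the 9 libraries. P4hb, which encodes protein disulfide isomerase, stood first at 412 CPM per kilobase. Herpud1 followed at 133, Hspa5 at 109, Pdia3 at 100 and Derl3 at 87.1 CPM per kilobase. The lowest were Derl2 at 3.78 and Trib3 at 1.89 CPM per kilobase. P4hb was also first per kilobase of coding sequence, but the genes behind it changed place on that scale, with Ssr3, Derl3, Herpud1 and Hspa5 next in that order. Trib3 at 3.77 and Ddit3 at 17.2 CPM were the lowest on that scale, while Derl2 stood at 35.2 CPM. Across the 9 libraries the highest value of a gene was 1.18 to 3.01 times its lowest, with a median of 1.46 times.

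**Figure D1:**
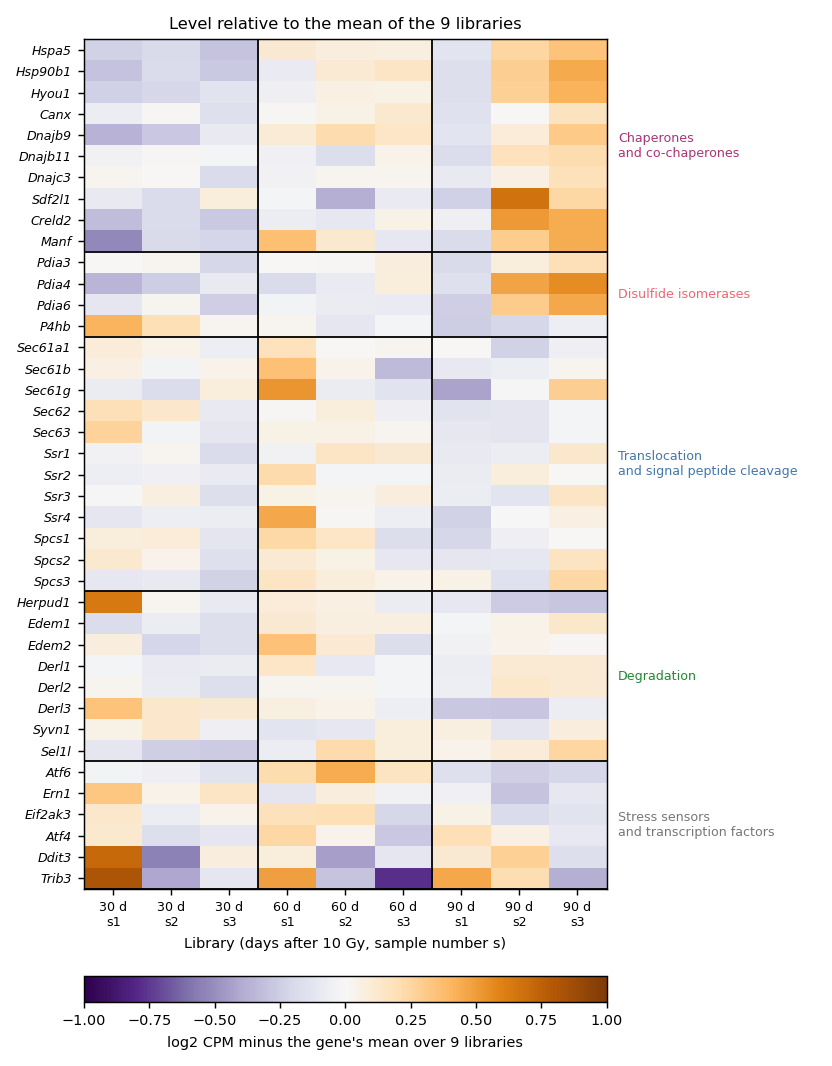
Each row is 1 of the 40 genes and each column 1 of the 9 libraries, and the colour is log2 CPM minus the gene's mean over the 9 libraries (orange higher, purple lower). The chaperones and Pdia4 are above their means in samples 2 and 3 at 90 days and not in sample 1, Atf6 is above its mean in the 3 libraries at 60 days, and Trib3 and Ddit3 spread most among the 30-day libraries.

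Chaperones bind unfolded chains and keep them from aggregating. All 10 chaperones and co-chaperones had positive fold changes from 30 to 90 days, with a median of 0.37 (median of all genes tested, 0.01), but the difference passed the test for 1 of them, Creld2. Their summed level was 1360 ± 42.7 CPM at 30 days, 1580 ± 19.5 at 60 days and 1690 ± 266 at 90 days (SD, n = 3). From 30 to 60 days 8 of 10 were higher, with a median of 0.22 (all genes, 0.00), and from 60 to 90 days 8 of 10 were higher, with a median of 0.11 (all genes, 0.00). The median from 60 to 90 days rested on single libraries, being 0.23 without sample 1, 0.06 without sample 2 and 0.00 without sample 3 at 90 days. These 3 medians share libraries and are not separate results.

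Creld2 encodes a stress-induced protein of the reticulum that is also secreted. Its level was 27.1, 29.9 and 28.1 CPM at 30 days, 32.3, 31.5 and 35.1 at 60 days, and 32.7, 48.2 and 46 at 90 days. Every library at 60 and 90 days was above every library at 30 days, and samples 2 and 3 at 90 days were the highest of all. Creld2 rose by 0.57 ± 0.13 on the log2 scale from 30 to 90 days (adjusted p = 0.0171). The adjusted p was 0.0383 for any difference among the time points, while the steps did not pass (0.22 ± 0.13, adjusted p = 0.536, to 60 days and 0.36 ± 0.13, adjusted p = 0.305, from there). The call from 30 to 90 days was lost when sample 1 (adjusted p = 0.0917) or sample 3 (0.0507) at 30 days, or sample 2 (0.122) or sample 3 (0.0919) at 90 days, was left out.

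Hspa5, which encodes BiP, the chaperone that also holds the stress sensors inactive, had 390, 401 and 372 CPM at 30 days, 493, 480 and 479 at 60 days, and 418, 543 and 578 at 90 days. The 3 libraries at 30 days were the lowest of the 9. The fold change was 0.32 ± 0.12 from 30 to 60 days (adjusted p = 0.27) and 0.40 ± 0.12 from 30 to 90 days (adjusted p = 0.0764), neither past the threshold. Hsp90b1, which encodes the chaperone GRP94, had 184, 199 and 188 CPM at 30 days, 214, 244 and 251 at 60 days, and 202, 276 and 309 at 90 days. Again no library at 30 days reached any later library. The fold change was 0.31 ± 0.13 from 30 to 60 days (adjusted p = 0.328) and 0.46 ± 0.13 from 30 to 90 days (adjusted p = 0.0609).

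Manf, a secreted factor that binds BiP, had 49.1, 61.6 and 60.6 CPM at 30 days, 90.5, 76.4 and 65.2 at 60 days, and 61.8, 86.3 and 95.4 at 90 days. Its fold change from 30 to 60 days, 0.44 ± 0.16 (adjusted p = 0.248), had the largest size among the 40 genes in that comparison and did not pass. Its fold change from 30 to 90 days was 0.51 ± 0.16 (adjusted p = 0.0987). Dnajb9, the BiP partner ERdj4 that also binds IRE1, had 31.3, 33.1 and 37.8 CPM at 30 days, 43.1, 46.7 and 44.4 at 60 days, and 36.8, 42.8 and 49.7 at 90 days. Its 60-day libraries lay above the 30-day ones (0.39 ± 0.12, adjusted p = 0.125), while the 90-day libraries overlapped with both. Hyou1, a large chaperone that exchanges nucleotide on BiP, had 121 to 130 CPM at 30 days, 138 to 149 at 60 days and 128, 173 and 191 at 90 days (0.39 ± 0.12 from 30 to 90 days, adjusted p = 0.0857).

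Sdf2l1, part of a BiP complex, had 27.9, 26.2 and 31.4 CPM at 30 days, 29.3, 22.9 and 28.1 at 60 days, and 25.2, 47.3 and 35 at 90 days. Sample 2 at 90 days stood above the other 8 libraries, and sample 1 at 90 days lay among the lowest. The fold change from 60 to 90 days was 0.42 ± 0.18 (adjusted p = 0.446). The lectin chaperone Canx and the co-chaperones Dnajb11 and Dnajc3 had fold changes from 30 to 90 days of 0.08 to 0.11, each with a standard error of 0.11.

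All 10 chaperones had their lowest value of the 90-day time point in sample 1. The median coefficient of variation of the 10 genes was 5.37% at 30 days, 4.92% at 60 days and 18.0% at 90 days. Without sample 1 at 90 days the median fold change from 30 to 90 days was 0.53, and 7 of the 40 genes passed the test, all of them higher: Creld2, Hsp90b1, Hspa5, Hyou1, Manf, Pdia4 and Pdia6. In that fit 3.86% of all genes passed, 311 higher and 284 lower. Without sample 2 or sample 3 at 90 days, or without sample 1 at 30 days, none of the 40 passed, and 1.23%, 1.56% and 1.16% of all genes did. Scaling by library size alone also gave 7 calls, all higher (Creld2, Hsp90b1, Hspa5, Hyou1, Manf, Pdia4 and Sel1l), against 1 higher and 1 lower with TMM. That scaling moved the median fold change of all genes from 30 to 90 days to 0.24 and the chaperones' median to 0.58, and with it 406 genes of all passed as higher and 34 as lower.

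**Figure D2:**
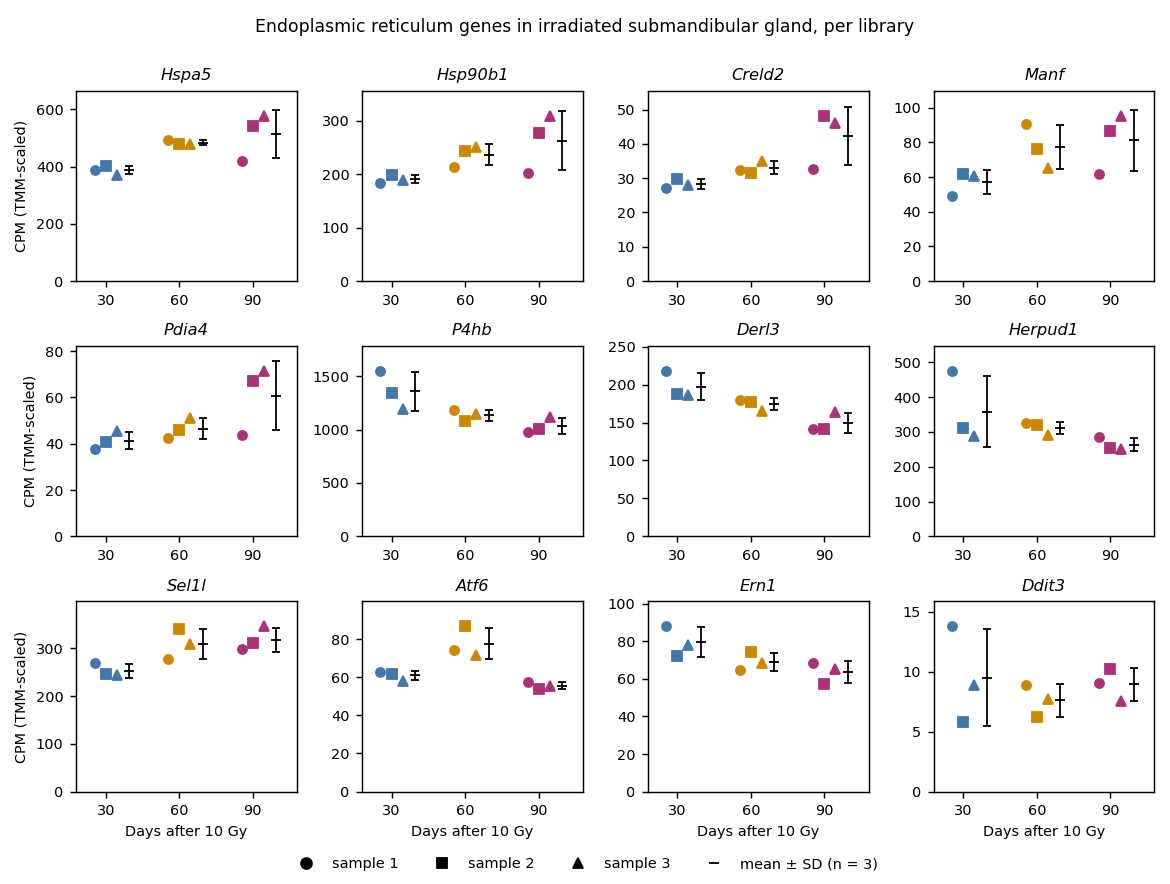
CPM in each library for 12 of the genes, with a symbol for each sample number, and the mean ± SD (n = 3) beside each time point; all axes start at 0. Within the 90-day time point the chaperones and Pdia4 are lower in sample 1 than in samples 2 and 3. Derl3 is lower at each later time point, and Atf6 is highest at 60 days.

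The summed levels of some cell type markers differed between the same libraries. The 19 markers of the granular convoluted ducts, which make growth factors and kallikreins, summed to 24700, 35700 and 34700 CPM at 30 days, 65300, 71600 and 58200 at 60 days, and 50700, 66900 and 75300 at 90 days. All 19 were tested, and 14 of them were higher at 60 than at 30 days and 16 at 90 than at 30 days with an adjusted p under 0.05. The chaperone sum was 1350, 1410 and 1320 CPM at 30 days, 1560, 1590 and 1600 at 60 days, and 1390, 1770 and 1910 at 90 days, so that sample 1 at 90 days was the lowest of its time point in both sums. The 18 acinar markers, of which 15 were tested, summed to 486000 to 688000 CPM at 30 days and 391000 to 569000 at 60 days. At 90 days they summed to 386000, 331000 and 479000 CPM, lowest in sample 2. From 30 to 90 days 4 of the 15 were lower with an adjusted p under 0.05 (Aqp5, Lpo, Ano1 and Chrm3) and none higher. By sign alone 11 were lower and 4 higher, namely Bpifa2, Dcpp1, Dcpp3 and Muc19, with fold changes of 1.67 to 3.15. The adjusted p-values of these 4 were 0.196 to 0.37 by edgeR's test. Dcpp1, Dcpp3 and Muc19 had as few as 1, 3 and 1 counts in their lowest library. Most of the acinar sum was Mucl2, with a mean of 428000 CPM at 30 days and 319000 at 90 days (adjusted p = 0.447 by edgeR's test). Acinar markers Aqp5 and Mucl2 were present in every library, while Smr3a was at 0 in 8 of 9. The 12 plasma cell markers summed to 62 to 122 CPM at 30 days, 64.4 to 80.2 at 60 days, and 146, 533 and 158 at 90 days, and none of the 10 tested passed. The 8 basal and myoepithelial markers summed to 351, 431 and 483 CPM at 30 days, 516, 515 and 554 at 60 days, and 477, 674 and 583 at 90 days, with sample 1 again the lowest at 90 days. All 7 that were tested had positive fold changes from 30 to 90 days, with a median of 0.47, and Trp63 passed. Sums of the duct markers ran from 891 to 1090 CPM over the 9 libraries, and those of stroma and vessel from 395 to 628 CPM. From 30 to 90 days 10 of the 12 duct markers were higher and 2 lower. Scnn1b (0.54 ± 0.12, adjusted p = 0.0123) and Scnn1g (0.47 ± 0.12, adjusted p = 0.0383) passed, which is 16.7%, against 3.57% of all genes. Scnn1b also passed from 30 to 60 days (adjusted p = 0.0288). Markers of other immune cells summed to 105 to 265 CPM, of nerve to 97.4 to 124 CPM and of fat to 7.42 to 12.4 CPM. At 90 days sample 1 was also the lowest in the sums of duct, plasma cell and other immune markers. It was not the lowest in those of acinar, stroma and vessel, nerve and fat markers. Stroma and vessel markers summed to 494, 577 and 489 CPM there, and nerve markers to 124, 97.5 and 97.4 CPM. The part of these differences in the results for the reticulum genes was not tested, and in bulk tissue fewer cells of a type cannot be told apart from less RNA per cell.

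The disulfide isomerases did not share a direction, and none of the 4 passed in any comparison. Pdia4, which works with BiP and GRP94, had 37.9, 40.7 and 45.5 CPM at 30 days, 42.6, 45.8 and 51.2 at 60 days, and 43.6, 67.2 and 71.4 at 90 days. Its level in samples 2 and 3 at 90 days exceeded that in each of the other 7 libraries, and its fold change from 30 to 90 days was 0.55 ± 0.15 (adjusted p = 0.0594). From 60 to 90 days its fold change was 0.38 ± 0.15 (adjusted p = 0.375). Pdia6 had 84.2 to 101 CPM at 30 days, 93.9 to 98 at 60 days and 84.1, 123 and 137 at 90 days (0.26 ± 0.14 from 60 to 90 days, adjusted p = 0.524). P4hb had 1550, 1340 and 1190 CPM at 30 days, 1180, 1080 and 1150 at 60 days, and 980, 1010 and 1120 at 90 days. The 30-day libraries lay above all later ones, with a fold change from 30 to 90 days of -0.39 ± 0.13 (adjusted p = 0.112). Pdia3, the partner of calnexin, differed by 0.09 ± 0.12 from 30 to 90 days.

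The translocation genes cover the Sec61 channel (Sec61a1, Sec61b, Sec61g), its helpers Sec62 and Sec63, the translocon-associated complex (Ssr1 to Ssr4) and the signal peptidase (Spcs1, Spcs2, Spcs3). None of the 12 passed in any comparison, and the lowest adjusted p was 0.364. From 30 to 90 days the fold changes ran from -0.17 (Sec62) to 0.20 (Spcs3), with 6 genes higher and 6 lower and a median of 0.00 (all genes, 0.01). At 60 days 10 of 12 were higher than at 30 days (median 0.07), and from 60 to 90 days all 12 were lower (median -0.10, all genes 0.00). These last counts share the 60-day libraries, in which sample 1 was the highest of the time point for 9 of the 12. Without it the medians were -0.01 from 30 to 60 days and -0.05 from 60 to 90 days, and without sample 3 at 90 days the median from 30 to 90 days was -0.11. With library-size scaling alone the median from 60 to 90 days was 0.08, where that of all genes was 0.175, so it lay under the median of all genes with either scaling.

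The summed level of the translocation genes was 1390 ± 79.9 CPM at 30 days, 1460 ± 88.7 at 60 days and 1360 ± 92.6 at 90 days (SD, n = 3). Sec61a1, the channel itself, had 230 to 255 CPM at 30 days, 240 to 271 at 60 days and 204 to 240 at 90 days. The small subunit gene Sec61g spread most, from 15.9 CPM in sample 1 at 90 days to 30.8 in sample 1 at 60 days. Groups without overlap were found for Ssr2 and Spcs3, higher at 60 than at 30 days, where 8.65% of all genes were. Sec63 was lower without overlap at 90 than at 60 days, where 7.64% of all genes were. Whether the translocation genes differ from all genes in this respect was not tested. Of the exon length of Spcs1, 16.3% overlaps Glt8d1 on the opposite strand, and whether the counting used strand is not given in the sources used here.

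The degradation genes pull misfolded proteins out of the compartment and mark them for the proteasome. Derl3, a member of the derlin family that sits in the membrane and passes substrates out, was the one gene of the 8 that passed. It had 218, 188 and 186 CPM at 30 days, 180, 177 and 165 at 60 days, and 142, 141 and 164 at 90 days. The 3 time points did not overlap at either step. Derl3 fell by 0.41 ± 0.11 on the log2 scale from 30 to 90 days (adjusted p = 0.0373), with adjusted p-values of 0.525 and 0.451 for the steps from 30 to 60 and from 60 to 90 days. With library-size scaling alone the fold change was -0.18 (adjusted p = 0.471). The call was also lost without sample 1 (adjusted p = 0.201) or sample 2 (0.081) at 30 days, without sample 2 at 60 days (0.0694), and without sample 1 (0.105), sample 2 (0.178) or sample 3 (0.052) at 90 days.

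Herpud1, a stress-induced adaptor of the same machinery, had 475, 312 and 288 CPM at 30 days, 325, 319 and 291 at 60 days, and 285, 255 and 251 at 90 days. Sample 1 at 30 days was the highest library, and the 90-day values lay below all others. The fold change from 30 to 90 days was -0.44 ± 0.15 (adjusted p = 0.125). Sel1l, the scaffold of the ubiquitin ligase, lay the other way, with 269, 246 and 243 CPM at 30 days, 278, 340 and 308 at 60 days, and 298, 310 and 346 at 90 days (0.33 ± 0.11 from 30 to 90 days, adjusted p = 0.118). Its partner Syvn1, the ligase HRD1, differed by -0.04 ± 0.10. The mannose-trimming factors Edem1 and Edem2 and the derlins Derl1 and Derl2 had fold changes from 30 to 90 days of 0.10 to 0.19. Of the 8 genes 5 were higher and 3 lower at 90 than at 30 days, with a median of 0.11 (all genes, 0.01).

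**Figure D3:**
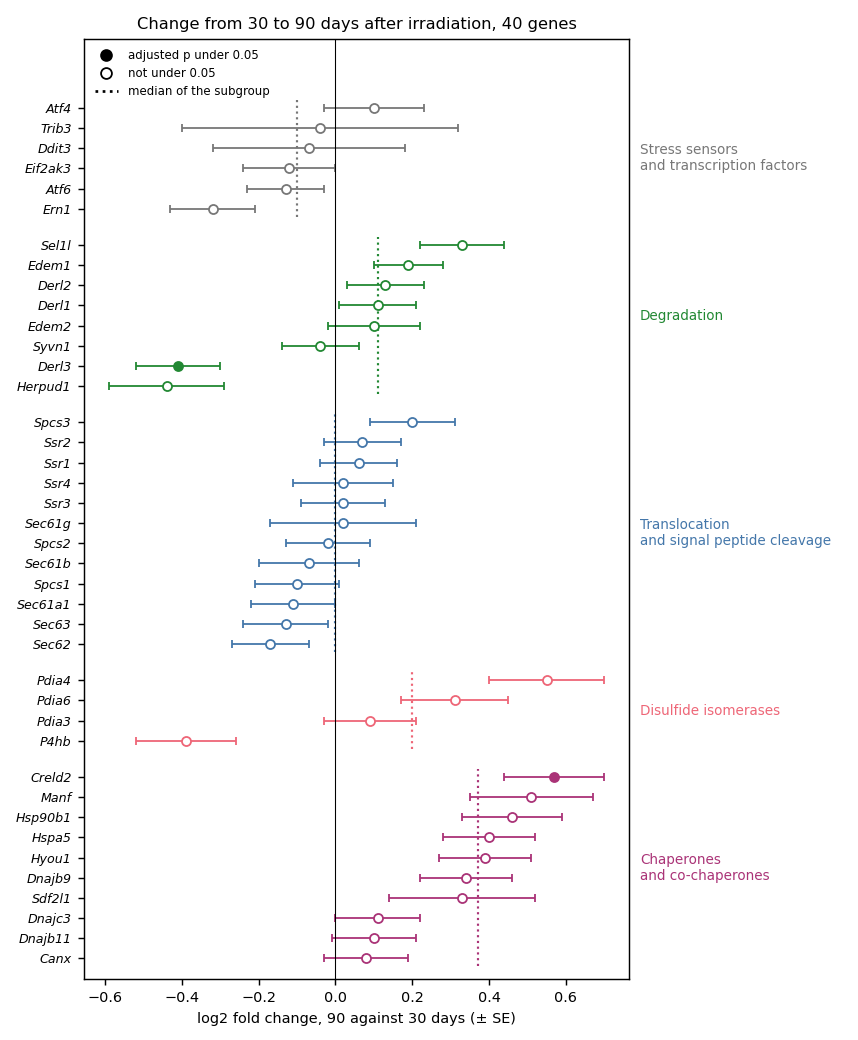
Log2 fold change from 30 to 90 days for the 40 genes, with the standard error as the bar, sorted within each subgroup; filled points have an adjusted p under 0.05 and dotted lines are subgroup medians. All 10 chaperones are above 0, the 12 translocation genes lie around 0, and Creld2 and Derl3 are the filled points.

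Among the sensors, Atf6 had its highest level at 60 days. ATF6 is cut in the Golgi under stress and then acts as a transcription factor on chaperone genes. Its gene had 62.7, 61.8 and 58.1 CPM at 30 days, 74.2, 86.7 and 71.4 at 60 days, and 57.5, 54 and 55.3 at 90 days. No library of one time point overlapped with another, and the 90-day libraries were the lowest. The adjusted p for any difference among the time points was 0.0212. Against the mean of 30 and 90 days, Atf6 was higher at 60 days by 0.41 ± 0.09 (adjusted p = 0.0484). In that comparison 1 of the 40 genes and 0.256% of all genes passed. At an unadjusted p under 0.05 there were 2 of the 40 (5%), under the share of all genes, 9.45%. The separate steps, 0.35 ± 0.10 from 30 to 60 days (adjusted p = 0.106) and -0.48 ± 0.10 from 60 to 90 days (adjusted p = 0.0511), did not pass, nor did the difference of -0.13 ± 0.10 between 30 and 90 days (adjusted p = 0.572).

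The call of Atf6 at 60 days was lost with library-size scaling alone (adjusted p = 0.703), and 7 of the 9 libraries ended it when left out, the largest change being without sample 2 at 60 days (0.33, adjusted p = 0.598). Without sample 1 at 30 days the adjusted p was 0.0529, without sample 2 it was 0.127 and without sample 3 it was 0.0938. Without sample 1, 2 or 3 at 90 days it was 0.0802, 0.0883 and 0.0961. The fold change stayed between 0.33 and 0.47 under every alternative run.

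Ern1, which encodes IRE1, the sensor that splices Xbp1 mRNA, had 88, 72.2 and 77.9 CPM at 30 days, 64.6, 74.1 and 68.5 at 60 days, and 68.3, 57.4 and 65.3 at 90 days. The 90-day libraries lay below the 30-day ones, with a fold change of -0.32 ± 0.11 (adjusted p = 0.114). Eif2ak3, which encodes PERK, the kinase that slows translation, had 69 to 78.8 CPM at 30 days, 62.3 to 82.8 at 60 days and 63.4 to 74.8 at 90 days, and its groups overlapped (-0.12 ± 0.12 from 30 to 90 days, adjusted p = 0.68). Xbp1, not one of the 40 genes, had 366 to 432 CPM at 30 days, 310 to 386 at 60 days and 338 to 372 at 90 days (-0.17 ± 0.12 from 30 to 90 days, adjusted p = 0.507). Gene counts do not separate its spliced from its unspliced form.

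None of the factors downstream of PERK passed. At 30 days Trib3 and Ddit3 had the largest coefficients of variation of the 40 genes, 47.0% and 42.8%. Atf4, the factor whose translation rises when PERK is active, had 118, 96.8 and 100 CPM at 30 days, 128, 111 and 89.4 at 60 days, and 124, 113 and 101 at 90 days (0.10 ± 0.13 from 30 to 90 days, adjusted p = 0.764). Ddit3, which encodes CHOP, a factor linked to stress-induced cell death, had 13.8, 5.77 and 8.88 CPM at 30 days, 8.89, 6.2 and 7.76 at 60 days, and 9.1, 10.2 and 7.53 at 90 days. The groups of Ddit3 overlapped throughout (-0.31 ± 0.25 from 30 to 60 days, adjusted p = 0.687, and -0.07 ± 0.25 from 30 to 90 days, adjusted p = 0.925). Trib3, a target of both factors, had 6.66, 2.85 and 3.49 CPM at 30 days, 5.31, 3.08 and 2.21 at 60 days, and 5.19, 4.37 and 2.91 at 90 days.

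Sample 1 was the highest library of its time point for Atf4 and for Trib3 at each of the 3 time points. All 6 sensors and factors were highest in sample 1 at 30 days within that group, and 5 of 6 in sample 1 at 90 days. Of all 40 genes, 19 were highest in sample 1 at 30 days and 7 in sample 1 at 90 days. That library at 90 days was the lowest of its time point for all 10 chaperones. The 6 genes had a median fold change from 30 to 90 days of -0.10, with 1 higher and 5 lower (all genes, 0.01). With library-size scaling alone it was 0.15, where the median of all genes was 0.237. Without sample 1 at 30 days it was 0.06, so its sign rested on that library.

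Groups without overlap were counted over the 40 genes as a second description. At 60 days 11 genes lay above all 30-day libraries, where 8.65% of all genes did: 6 chaperones (Hspa5, Hsp90b1, Hyou1, Dnajb9, Creld2 and Manf), Ssr2, Spcs3, Edem1, Sel1l and Atf6. P4hb and Derl3 lay below, where 8.22% of all genes did. From 60 to 90 days none of the 40 lay above (8.3% of all genes) and 4 lay below (7.64% of all genes), namely Sec63, Herpud1, Derl3 and Atf6. From 30 to 90 days 6 lay above (11.4% of all genes), namely Hspa5, Hsp90b1, Creld2, Manf, Edem1 and Sel1l, and 5 lay below (11.8% of all genes), namely P4hb, Herpud1, Derl3, Atf6 and Ern1. The genes above at 60 and at 90 days are read against the same 30-day libraries.

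Changes in the genes with an ERSE match ran in both directions. From 30 to 90 days 6 of the 8 were higher and 2 lower, with fold changes from -0.41 (Derl3) to 0.57 (Creld2) and a median of 0.21. The 25 genes with a window and no exact match had a median of 0.02, with 14 higher and 11 lower (all genes, 0.01). Genes without an exact match may still hold a variant of the element. Both called genes fall among the 8, as given above, and no difference between the 2 sets was tested. The CCACG block alone, which the ERSE also holds, was in the windows of 25 of 33 genes, against 32.8% of all windows. A related element, the UPRE, searched as TGACGTGG on both strands, was in none of the 33, against 0.676% of all windows; its reverse complement holds the CCACG block. The core of the amino acid response element bound by ATF4 with its partners, searched as TGATGNAA on both strands, was in 2 of the 33, against 3.97% of all windows. The 2 genes, Herpud1 and Trib3, were among the 8 of the 40 whose highest library was sample 1 at 30 days. The others of these 8, P4hb, Sec62, Sec63, Derl3, Ern1 and Ddit3, had no such core in their windows. Whether the core goes with that library was not tested. The sites of Herpud1 and Trib3 are written on their own strand with the core in capitals. Each match is a run of letters and not a measured binding site.
Herpud1, chr8:94386311-94386330, minus strand: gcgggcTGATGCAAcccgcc
Trib3, chr2:152344033-152344052, plus strand: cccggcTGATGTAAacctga

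**Figure D4:**
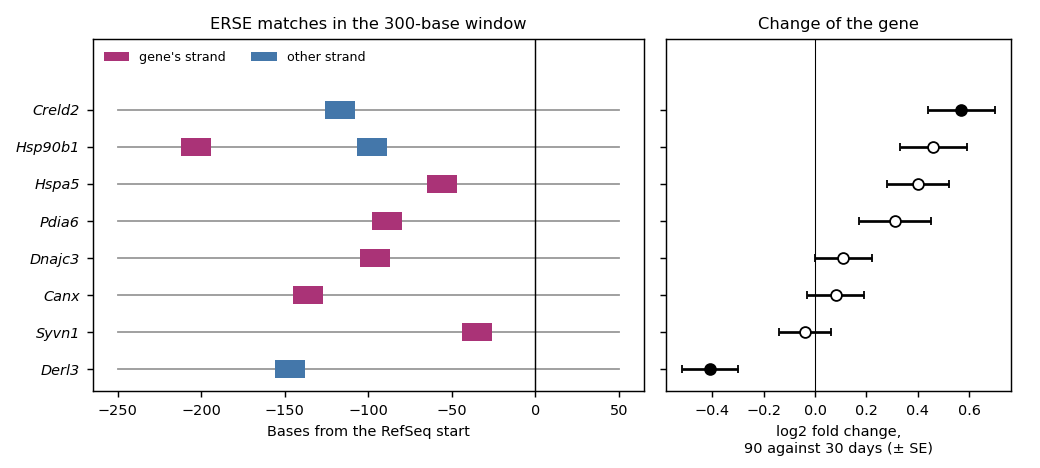
On the left, the position of each ERSE match in bases from the RefSeq start for the 8 genes that hold one, coloured by strand; on the right, the log2 fold change of the same gene from 30 to 90 days with its standard error, filled where the adjusted p is under 0.05. Creld2, at the top, and Derl3, at the bottom, both hold an element on the strand opposite to the gene.

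Further genes of the same pathways, from 4 lists chosen with earlier results of these data known, were tested in the same fit. Of 39 other folding and redox genes, 3 (7.69%) passed from 30 to 90 days, against 3.57% of all genes. Rcn1, a calcium-binding protein of the compartment, fell by 0.70 ± 0.11 (adjusted p = 0.0014), from 159, 135 and 132 CPM at 30 days to 86.8, 86.2 and 88.3 at 90 days. Qsox1, a sulfhydryl oxidase, fell by 0.46 ± 0.12 (adjusted p = 0.035), and the collagen chaperone Serpinh1 rose by 0.64 ± 0.16 (adjusted p = 0.0333). From 30 to 60 days 2 of the 39 passed (5.13%, against 1.56% of all genes), Rcn1, which fell by 0.47 ± 0.11 (adjusted p = 0.0372), and Hspa13, an HSP70 family member, which rose by 0.54 ± 0.12 (adjusted p = 0.0297). From 60 to 90 days none of the 39 passed by edgeR's test (5 at an unadjusted p under 0.05).

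Of 36 other translocation, signal recognition and N-glycosylation genes, 1 passed from 30 to 90 days (2.78%, under the 3.57% of all genes), Stt3b, a catalytic subunit of oligosaccharyltransferase, which rose by 0.39 ± 0.10 (adjusted p = 0.0376). None of the 36 passed in either shorter step by edgeR's test (3 and 1 at an unadjusted p under 0.05). Of 27 other degradation genes none passed in any pairwise comparison (4, 1 and 4 at an unadjusted p under 0.05 for 60 against 30, 90 against 60 and 90 against 30 days, where 12.4%, 10.8% and 16.8% of all genes were).

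Of 44 other stress response genes, 1 passed from 30 to 60 days, 1 from 60 to 90 days and 2 from 30 to 90 days. These are 2.27%, 2.27% and 4.55%, against 1.56%, 0.256% and 3.57% of all genes. Creb3l2, a relative of ATF6 that is also cut in the Golgi, rose by 0.45 ± 0.11 from 30 to 60 days (adjusted p = 0.0384). Bhlha15, the secretory cell factor MIST1, which is also among the acinar markers, had 380, 378 and 338 CPM at 30 days, 567, 495 and 470 at 60 days, and 344, 262 and 287 at 90 days. Its 60-day libraries were the highest, as for Atf6, and it fell by 0.78 ± 0.12 from 60 to 90 days (adjusted p = 0.00581). Against the mean of 30 and 90 days it was higher at 60 days by 0.63 ± 0.10 (adjusted p = 0.00644). From 30 to 90 days Creb3l4, another relative of ATF6, fell by 1.19 ± 0.25 (adjusted p = 0.0278), and Sesn2, a stress-induced sestrin, fell by 0.78 ± 0.18 (adjusted p = 0.0225).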

How the data were processed

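Raw read counts per gene were deposited by the authors for whole-gland RNA; fastp, STAR, featureCounts and the build mm10 are named in the submitters' processing notes, and the annotation, versions and use of strand are not given in the sources used here. Columns were matched to samples by day and number; 3 columns matched no listed sample and were not used. Genes were filtered with edgeR 4.0.16 (filterByExpr, minimum count 10), scaled by TMM and fitted by the robust quasi-likelihood method on all 9 libraries, with Benjamini-Hochberg adjustment over 15224 genes. A common coefficient of variation of 0.15 was estimated. The method was tested on simulated data with planted changes larger than any found in the members. Recovery of changes as small as theirs was not tested. Members, lists, subgroups and tests were chosen with earlier results of these data known. Full statistics went to genes that passed, to the 5 largest changes per pairwise comparison, and to the sensors, Hspa5 and Xbp1. Lengths came from GENCODE M21. Alternatives used DESeq2 1.42.0, limma 3.58.1, other scalings and filters, a replicate block, and leaving out each library. Ddit3 has a pair of gene models, of which the second was at 0.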

Additional observations from a re-analysis of the deposited data

Results flagged for a closer look

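Atf6 is listed because the comparison of 60 days with the mean of 30 and 90 days, which equals a comparison of its steps before and after 60 days, passed the test. That value is the reason for listing it and not a further test; it was 0.41 ± 0.09 on the log2 scale (edgeR's quasi-likelihood test, adjusted p = 0.0484), and all 3 libraries at 60 days lay above the other 6.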

How the results depend on the processing

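Counts are of the 40 genes that passed. From 30 to 60 days, 0 passed, and 2 without a filter on low counts (Dnajb9 and Manf). The shares of all genes there were 1.56% and 1.7%. From 60 to 90 days, 0 passed, and 1 (Atf6) with DESeq2-type size factors, DESeq2, limma-voom, no filter and the replicate block, with a range of 0 to 1 when 1 library was left out. In the fit used above 0.256% of all genes passed. Under those alternatives, in that order, 0.269%, 0.887%, 0.309%, 1.31% and 0.604% did, and 0.104% to 0.658% when 1 library was left out. From 30 to 90 days, 2 passed; the count was 7 with library-size scaling alone, 8 with DESeq2, 9 without a filter, 4 with the replicate block and 1 with a fold change of at least 0.5, and 0 to 7 when 1 library was left out. Of all genes 3.57% passed there, and under the first 4 of these alternatives 2.89%, 5.55%, 3.87% and 4.71%. When 1 library was left out, 1.16% to 4.49% of all genes passed. For 60 days against the mean of the others, 1 passed, and 0 with library-size scaling alone, with that scaling without the 10 most abundant genes, and with limma-voom, and 0 to 1 when 1 library was left out. There 0.256% of all genes passed in the fit used above, and 0.131%, 0.223% and 0.223% under those alternatives in that order. Leaving out 1 library gave 0.0836% to 0.517%. For any difference, 2 passed, 6 with DESeq2, 1 with limma-voom, 11 without a filter, and 0 to 9 when 1 library was left out. The shares of all genes were 3.29%, then 5.52%, 2.92% and 4.42%, and 1.39% to 4.36% when 1 library was left out. The cause of these changes was not tested. None of the 3 named calls changed direction: Creld2 kept its call under 14 of 18 alternatives, Derl3 under 11 of 18 and Atf6 under 7 of 17.

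Whether equal sample numbers mark matched libraries is not given in the labels. Correlations of deviations between same-numbered libraries ran from -0.06 to 0.191, and between differently numbered ones from -0.21 to 0.189. Not every library correlated best with its own number, and these values cannot show whether the numbers pair the libraries. With the block, 717 of all genes passed from 30 to 90 days against 544 without it, and Hsp90b1 and Pdia4 were added to Creld2 and Derl3. Depth limited Trib3 most, with 48 counts in its lowest library.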

Other observations

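Genes induced through ATF4 in the amino acid response, named here after their values were seen, varied within time points. Chac1 had 14.3, 2.38 and 4.85 CPM at 30 days, 2.29, 1.67 and 1 at 60 days, and 10.9, 4.23 and 2.61 at 90 days. Psat1, an enzyme of serine synthesis, had 54.9, 20.2 and 18.8 CPM at 30 days, 37.4, 39.1 and 22.9 at 60 days, and 41.5, 12.9 and 13.2 at 90 days. Mthfd2, of mitochondrial folate metabolism, had 32.2, 13.3 and 12 CPM at 30 days, 22.8, 19.8 and 15.6 at 60 days, and 24.4, 12 and 11.6 at 90 days. In each of these genes sample 1 was the highest library at 30 and at 90 days. Of the 44 other stress response genes, 30 were highest in sample 1 at 30 days, 24 in sample 1 at 60 days and 26 in sample 1 at 90 days, each within its time point. In the same order of time points the counts were 17, 22 and 5 of the 39 other folding and redox genes. They were 21, 22 and 5 of the 36 other translocation genes, and 10, 12 and 11 of the 27 other degradation genes. The share of all genes was not counted. None of Chac1, Psat1 and Mthfd2 passed a comparison of time points.

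Of the 12 plasma cell markers 8 had their highest value in sample 2 at 90 days, and Igha, Iglc1, Sdc1 and Tnfrsf17 did not. Ighm had 191 CPM and Jchain 52.6 CPM in sample 2 at 90 days, against at most 15.5 and 16.9 CPM in the other 8. Igha had 65.1, 58.7 and 64.7 CPM at 90 days, lowest in that sample, and Sdc1 had 15.9 CPM there against 18.8 CPM in its highest library. Mzb1, a chaperone cofactor of plasma cells, was at 0.0417 to 1.13 CPM in all 9 libraries, highest in the same sample.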
